A study of Mus musculus with 60 samples.

Results

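The genes described here build the DNA replication fork and supply it with deoxynucleotides. There were 39 of them, chosen by function, and 38 had at least 1 probe set with a single gene symbol in the array annotation, out of 18193 genes measured in this way. Chaf1a, which encodes the large subunit of chromatin assembly factor 1, had none. Each gene was read from the probe set with the widest interquartile range over the arrays used.

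All mice were male CBA-C57BL/6 animals carrying pIns-MYCERTAM, in which the insulin promoter places a MYC protein fused to a modified oestrogen receptor in beta cells. The fusion is inactive until 4-hydroxytamoxifen is given. MycON mice received 4-hydroxytamoxifen by intraperitoneal injection at 1 mg per day and MycOFF mice received peanut oil. Each state was combined with subcutaneous exendin-4 at 50 µg/kg, a peptide that activates the GLP-1 receptor, or with water, both started 2 days earlier. Islets, the endocrine clusters of the pancreas in which beta cells are the main cell type, were collected at 4, 8, 16, 32 and 72 h by laser capture from frozen sections of 15 µm. One label gives an age of 8 to 12 weeks and another an age of 3 months. No group lacked the fusion gene, so an effect of 4-hydroxytamoxifen itself and an effect of MYC cannot be told apart. Of 60 arrays, 52 were used: 13 MycON water, 12 MycON exendin-4, 12 MycOFF water and 15 MycOFF exendin-4. There were 20 groups, with 3 arrays in 12 of them and 2 in 8. The labels call them biological replicates without tying an array to an animal, so p-values measure the spread among these arrays.

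In the deposited log2 values each probe set had been centred on its own median over the 60 arrays. A level of 0 therefore means the usual value of that probe set, not absence, and levels of different genes cannot be compared. The spread of an array (SD over all probe sets except controls) was 0.283 to 0.946 in the arrays used. Their medians over all genes lay between -0.04 and 0.10. The medians of 8 beta cell markers lay between -0.88 and 1.26 in these arrays. A lower value in such islet samples can come from fewer cells of a type or from less RNA per cell, which cannot be told apart.

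At a replication fork the CMG helicase, made of CDC45, the MCM ring and the GINS complex, unwinds the duplex, and RPA coats the exposed single strands. DNA polymerase alpha and primase lay down primers, the RFC complex loads the PCNA ring, and polymerases delta and epsilon extend the strands. FEN1 and DNA ligase 1 finish the lagging strand, while ribonucleotide reductase, thymidylate synthase, thymidine kinase and dUTPase set the supply of deoxynucleotides. Most adult beta cells are not dividing, and these genes are usually expressed in the S phase of dividing cells.

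Promoter sequence was examined because E2F factors and MYC are textbook regulators of S phase genes. RefSeq windows (GRCm38.p6) of 250 bases before to 50 after a gene start were found for 32 of the 39 genes, in 39 windows. The letters TTTNNCGC, an E2F-like motif searched on both strands, were present in the windows of 11 of 32 genes (34.4%), against 5.93% of 27025 genes in the table. The E-box CACGTG, the core letters of a MYC site, was present in 7 of 32 (21.9%) against 8.09%. The GC box GGGCGG was present in 78.1% against 38.2% and CCAAT in 53.1% against 41.1%. The 250 bases before the start are shown for 4 genes: Hells and Uhrf1, with large MYC effects and an E2F-like match; Pcna, with a large effect and neither match; and Tyms, with no measured effect and an E-box. Matches are in capitals. The windows lie at chr19:38930740-38930989 on the plus strand for Hells, chr17:56303087-56303336 on the plus strand for the first window of Uhrf1, chr2:132253181-132253430 on the minus strand for Pcna and chr5:30073626-30073875 on the minus strand for Tyms.
Hells: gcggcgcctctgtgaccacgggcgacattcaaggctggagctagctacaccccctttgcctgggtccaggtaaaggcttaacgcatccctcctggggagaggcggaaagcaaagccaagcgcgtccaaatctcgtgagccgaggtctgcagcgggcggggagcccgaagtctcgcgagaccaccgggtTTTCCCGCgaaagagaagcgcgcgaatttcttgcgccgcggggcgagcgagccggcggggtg
Uhrf1: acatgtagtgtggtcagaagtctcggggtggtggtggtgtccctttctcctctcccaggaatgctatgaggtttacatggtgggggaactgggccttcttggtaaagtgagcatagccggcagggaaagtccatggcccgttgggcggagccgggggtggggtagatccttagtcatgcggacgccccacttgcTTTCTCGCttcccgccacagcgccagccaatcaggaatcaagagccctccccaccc
Pcna: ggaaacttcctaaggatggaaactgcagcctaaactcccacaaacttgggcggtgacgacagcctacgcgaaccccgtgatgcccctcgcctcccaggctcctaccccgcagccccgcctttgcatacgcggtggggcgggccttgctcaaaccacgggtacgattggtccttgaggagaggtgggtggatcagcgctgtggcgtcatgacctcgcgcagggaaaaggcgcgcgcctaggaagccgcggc
Tyms: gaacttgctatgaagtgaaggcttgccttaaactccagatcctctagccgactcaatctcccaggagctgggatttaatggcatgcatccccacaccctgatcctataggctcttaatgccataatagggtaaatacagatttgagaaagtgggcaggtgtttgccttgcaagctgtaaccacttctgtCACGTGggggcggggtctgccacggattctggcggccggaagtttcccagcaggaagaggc

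The 11 measured genes with an E2F-like match had a median MYC effect of 0.81 and 6 of them rose, and the 20 without had 1.41 and 18 rose. For the E-box the medians were 0.63 with a match (4 of 6 rose) and 1.19 without (20 of 25 rose). The genes with either match thus had the lower median, which is given as a description with no test. The window of Tyms also held an E2F-like match, in the 50 bases after the start that are not shown.

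The main comparison set MycON against MycOFF islets as the mean over both injections and the 5 times. With MYC on, 31 of the 38 genes rose and 0 fell (limma, Benjamini-Hochberg adjusted p under 0.05), where 6.56% of all 18193 genes rose and 3.48% fell. The median difference of the 38 genes was 1.11 log2 units, against -0.03 over all genes, and 37 of 38 differences were above 0. The difference was past the threshold and at least 2-fold for 21 genes. The largest was that of Hells, a chromatin remodelling helicase needed for DNA methylation, at 2.37 ± 0.26 (SE; 25 against 27 arrays) or 5.15-fold (limma adjusted p = 8.53e-08). The smallest adjusted p was that of Prim1, the catalytic subunit of primase, at 2.19 ± 0.22 or 4.57-fold (limma adjusted p = 2.41e-08). The 7 genes that did not pass were Rfc3, Pola2, Pold3, Pole2, Gins3, Chaf1b and Tyms.

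**Figure D1:**
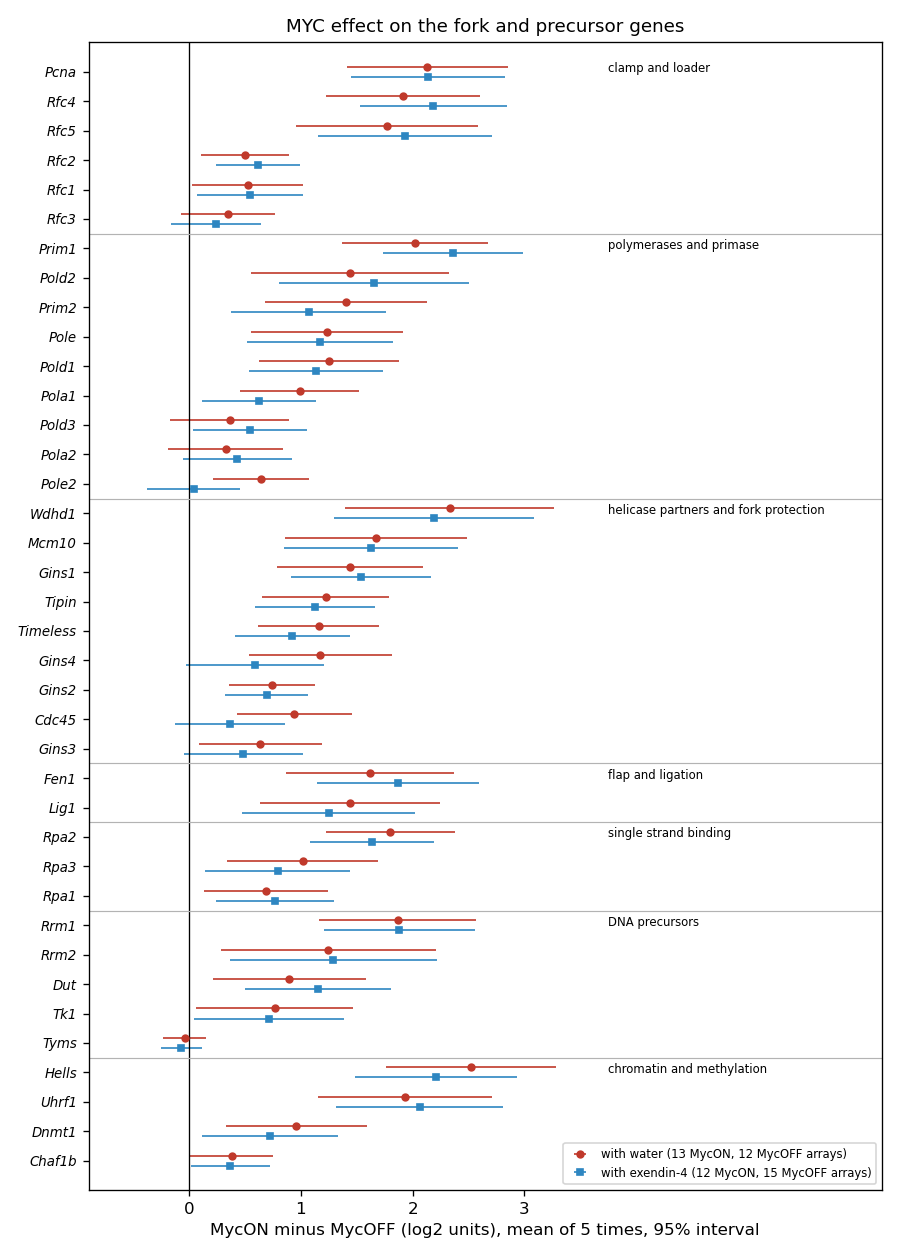
MycON minus MycOFF difference in log2 units for 38 genes, averaged over 5 times, with water (circles) and with exendin-4 (squares). Bars are 95% intervals and lines separate the roles. Only Tyms lay below 0 in both injections, and no gene differed between the injections past the threshold.

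The probe set decides part of these sizes. Of the 38 genes, 28 had more than 1 probe set, and the 40 probe sets not used had a median MYC effect of 0.06, with 25 above 0 and 4 at least 2-fold higher. Those 4 belonged to Prim1 (1.67), Hells (1.5), Fen1 (1.28) and Rfc4 (1.16). Other probe sets of Rrm1 lay at -0.04 and 0.03, that of Uhrf1 at 0.02 and that of Rpa2 at 0.00. With the mean over all probe sets of each gene, 32 genes rose. That count is given without the share of all genes, so it is not read as particular to the fork genes.

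Among the sliding clamp and its loader, 5 of 6 genes rose. Pcna, the ring that holds polymerases on DNA, ran in MycOFF arrays from -2.17 through a median of -1.21 to 0.09, and in MycON arrays from -1.2 through 0.75 to 3.38. All 25 MycON arrays exceeded the MycOFF median and 19 exceeded the highest MycOFF array. The difference was 2.13 ± 0.24 (limma adjusted p = 1.99e-07).

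In the probe sets used, the loader subunits Rfc4 and Rfc5 had large and Rfc1, Rfc2 and Rfc3 small effects, a difference that was not tested. The other probe sets lay at 1.16 for Rfc4, -0.07 and 0.32 for Rfc1, 0.45 and 0.49 for Rfc2 and 0.08 for Rfc3. Rfc5 had no other. Rfc4 ran from -2.34 through -1.0 to 1.31 in MycOFF and from -0.99 through 1.08 to 3.14 in MycON arrays, a difference of 2.05 ± 0.23 (limma adjusted p = 1.81e-07). Rfc5 differed by 1.85 ± 0.28. Rfc2 and Rfc1, the large subunit, rose by 0.56 ± 0.13 and 0.53 ± 0.17. Rfc3 ran from -0.31 through -0.12 to 1.19 in MycOFF and from -0.32 through 0.07 to 1.57 in MycON arrays. Its difference of 0.29 ± 0.14 did not pass (limma adjusted p = 0.23), and its arrays overlapped widely. The call of Rfc1 was lost without any 1 of 21 arrays (adjusted p up to 0.0951).

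Of the polymerase and primase genes 6 of 9 rose. Prim1 ran from -1.98 through -1.37 to 0.34 in MycOFF and from -2.04 through 1.22 to 3.21 in MycON arrays. The lowest MycON array, a 4 h water array, lay under all MycOFF arrays, yet 18 of 25 lay above the highest of them. Prim2, the other primase subunit, rose by 1.24 ± 0.25, and Pola1, the catalytic subunit of polymerase alpha, by 0.81 ± 0.18. Polymerase delta rose in its catalytic subunit Pold1 (1.19 ± 0.21) and in Pold2 (1.55 ± 0.30), and polymerase epsilon in its catalytic subunit Pole (1.2 ± 0.23).

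The accessory subunits Pola2, Pold3 and Pole2 had values of 0.38, 0.45 and 0.34 and did not pass. Pola2 ran from -0.99 through -0.02 to 2.19 in MycOFF and from -0.76 through 0.01 to 2.25 in MycON arrays, so that the medians nearly coincided (limma adjusted p = 0.193). In the probe sets used, each catalytic subunit of the 3 polymerases thus passed, while 1 accessory subunit of each did not. The difference between subunits was not tested, and it depends on the probe set. With the mean over all probe sets of each gene Pold3 passed. The other probe sets of the catalytic Pold1 and Pola1 lay at 0.11 and -0.01. Those of Pola2 lay at -0.02 and -0.02 and that of Pole2 at -0.04.

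Of the helicase partners and fork protection genes 8 of 9 rose. Wdhd1, which ties polymerase alpha to the helicase, ran from -2.24 through -0.86 to 2.35 in MycOFF and from -0.75 through 1.84 to 3.21 in MycON arrays (2.26 ± 0.32, limma adjusted p = 6.46e-06). Mcm10, which activates the helicase, rose by 1.65 ± 0.28 and the GINS subunit Gins1 by 1.49 ± 0.22. Gins4 and Gins2 rose by 0.88 ± 0.22 and 0.72 ± 0.13. Timeless and Tipin, partners in a complex that protects stalled forks, rose by 1.04 ± 0.18 and 1.17 ± 0.19.

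Gins3 missed the threshold narrowly. It ran from -1.24 through -0.05 to 1.90 in MycOFF and from -1.07 through 0.31 to 3.19 in MycON arrays (0.56 ± 0.19, limma adjusted p = 0.0517). Cdc45, a helicase component, rested on few arrays: 8 of 25 MycON arrays lay above 0.5 and 0 of 27 MycOFF arrays did. Its median was 0.04 in MycON and -0.01 in MycOFF arrays, with a highest value of 3.15 (0.65 ± 0.17, limma adjusted p = 0.0117). The call was lost when arrays were weighted by their quality.

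Both lagging strand genes rose. Fen1, the flap endonuclease, lay between -0.27 and 0.44 in MycOFF arrays with a median of -0.19, and ran from -0.26 through 1.59 to 4.52 in MycON arrays (1.74 ± 0.26, limma adjusted p = 1.3e-05). Its MycOFF arrays were the narrower group, and 17 of 25 MycON arrays exceeded them all. Lig1, the ligase, ran from -2.15 through -0.39 to 1.00 and from -1.72 through 0.52 to 3.64 (1.34 ± 0.27, limma adjusted p = 0.000921).

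All 3 subunits of RPA rose. Rpa2 ran from -0.95 through -0.40 to 0.42 in MycOFF and from -0.41 through 1.38 to 3.44 in MycON arrays (1.72 ± 0.20, limma adjusted p = 1.82e-07). As with Pcna, 19 of 25 MycON arrays exceeded every MycOFF array. Rpa3 rose by 0.90 ± 0.23 and Rpa1 by 0.73 ± 0.19, with only 2 MycON arrays of Rpa1 above the highest MycOFF array.

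Of the precursor genes 4 of 5 rose. Rrm1, the large subunit of ribonucleotide reductase, ran from -1.97 through -0.99 to 1.55 in MycOFF and from -0.80 through 1.15 to 3.23 in MycON arrays (1.87 ± 0.24, limma adjusted p = 1.21e-06). Every MycON array exceeded the MycOFF median. Rrm2, the small subunit whose amount limits the enzyme in S phase, ran from -2.85 through -0.93 to 3.38 and from -2.05 through 0.42 to 2.86 (1.27 ± 0.33, limma adjusted p = 0.0091). Its highest value belonged to a MycOFF array, replicate 2 of MycOFF exendin-4 at 72 h, and 0 of 25 MycON arrays exceeded it. That array was not high in Rrm2 alone. It was also the highest MycOFF array in Mcm10, Wdhd1, Pola2, Pold1, Rrm1, Tk1, Hells and Dnmt1, among others. Within its group it was the highest in 25 of the 38 genes, against 26.5% of all genes. Its stromal marker median was 1.88.

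Dut, which encodes dUTPase, rose by 1.02 ± 0.23. Tk1, the salvage kinase for thymidine, lay above 0.5 in 9 of 25 MycON arrays and 1 of 27 MycOFF arrays, with medians of 0.03 and -0.03 and a highest value of 4.01. Its difference of 0.74 ± 0.24 (limma adjusted p = 0.0415) lost its call without any 1 of 26 arrays (adjusted p up to 0.106). Tyms, which makes thymidylate from deoxyuridylate, ran from -0.10 through 0.06 to 0.62 in MycOFF and from -0.09 through -0.01 to 0.90 in MycON arrays. The difference was -0.06 ± 0.06 (95% interval -0.19 to 0.08, limma adjusted p = 0.598), and its 4 probe sets lay between -0.06 and -0.01. All 4 varied little over these arrays, with interquartile ranges of 0.07 to 0.17, and whether they detect the transcript in islets cannot be read from centred values.

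Of the 4 chromatin and methylation genes 3 rose. Hells ran from -1.12 through -0.55 to 1.15 in MycOFF and from -0.64 through 1.85 to 4.33 in MycON arrays, with 17 of 25 MycON arrays above every MycOFF array. Uhrf1, which directs DNA methylation to newly copied DNA, ran from -1.29 through -0.88 to 0.93 and from -0.61 through 0.58 to 3.83 (2.00 ± 0.27, limma adjusted p = 2.45e-06). Its partner Dnmt1, the maintenance methyltransferase, ran from -1.27 through -0.49 to 1.5 and from -1.81 through 0.49 to 2.51 (0.84 ± 0.22, limma adjusted p = 0.00823). Chaf1b, a subunit of chromatin assembly factor 1, was above 0.5 in 8 MycON arrays and 0 MycOFF arrays, and its difference of 0.37 ± 0.13 missed the threshold (limma adjusted p = 0.053).

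**Figure D2:**
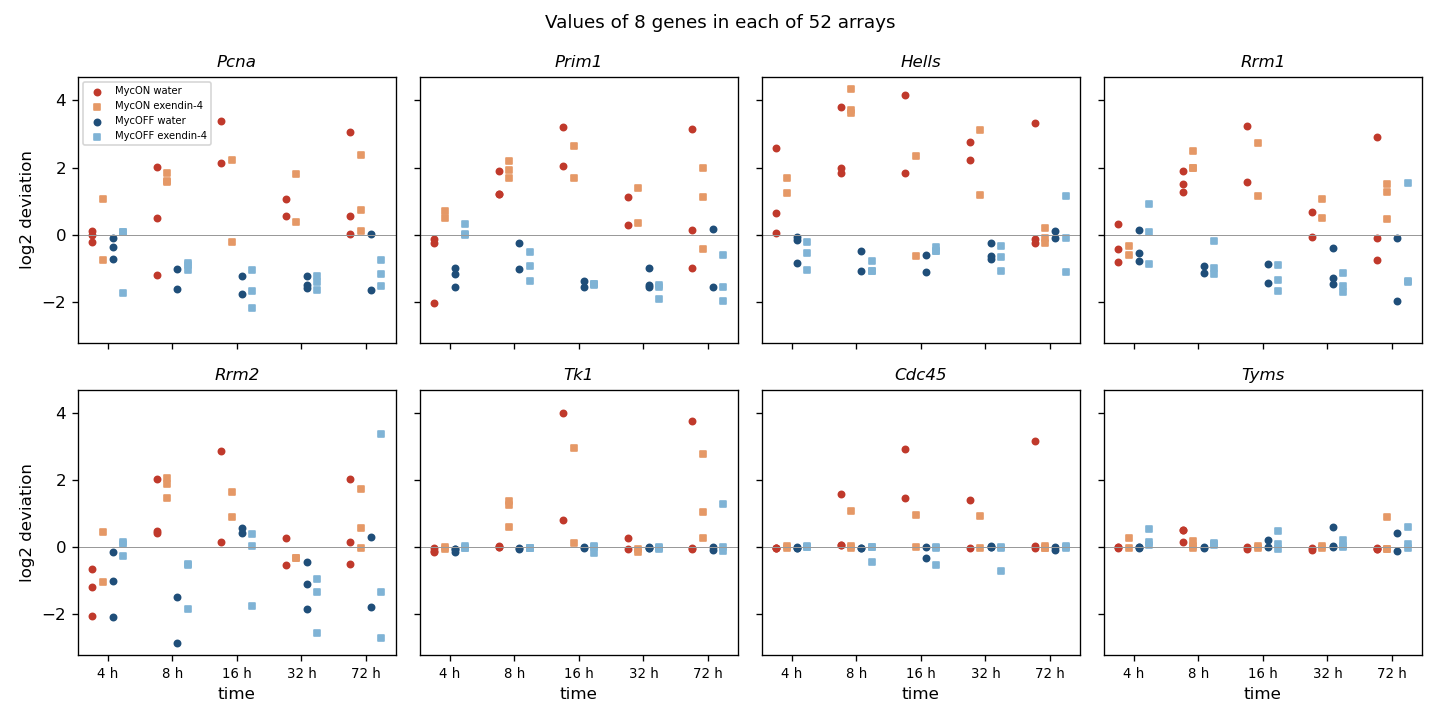
Log2 deviation of 8 genes in each of 52 arrays, by time, with 1 point per array, coloured by MYC state and injection. At 4, 8 and 32 h every MycON array of Hells lay above every MycOFF array of its injection, Tk1 and Cdc45 were high in few arrays, and Tyms stayed between -0.10 and 0.90 in all arrays.

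Neighbouring genes of the same processes also rose in part. Of 14 other precursor genes 7 rose and 0 fell, those with the smallest p being Dctd, a deaminase that feeds the thymidylate pathway (1.21 ± 0.11), Ctps, which makes CTP (0.91 ± 0.13), Shmt1, of folate metabolism (1.15 ± 0.20), and the thymidylate kinase gene Dtymk (1.05 ± 0.20). Of 23 other fork and chromatin assembly genes 12 rose and 0 fell, those with the smallest p being Ung, which removes uracil from DNA (2.16 ± 0.25), Rnaseh2b (1.40 ± 0.19), Hat1, a histone acetyltransferase (1.39 ± 0.20), and the nuclease gene Dna2 (1.09 ± 0.18). Of 20 repair and mitochondrial counterparts of these enzymes 5 rose and 0 fell, with a median of -0.03: Polg2 (1.00 ± 0.23), Twnk (0.64 ± 0.16), Rev1 (0.67 ± 0.17) and Polh (0.48 ± 0.13) had the smallest p, and Ssbp1 was the fifth. The medians of the first and second list were 0.70 and 0.58.

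Markers of other cells moved with MYC as well. Of 12 macrophage markers 7 rose (median 0.71), and their array medians ran from -0.79 to 3.27 in MycON and from -1.71 to 0.34 in MycOFF arrays. Of 8 beta cell markers 3 fell, Pdx1, Ucn3 and Slc2a2, with array medians of -0.71 to 0.99 in MycON and -0.88 to 1.26 in MycOFF arrays. No marker of lymphoid cells (8), acini (7), ducts (4) or stroma (8) passed in this comparison, and 1 of 7 endothelial markers, Kdr, fell. Since values are centred, it cannot be read which markers are undetected, and their part in the result over all times was not tested.

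With water, 22 of 38 genes rose and 0 fell, where 2.42% of all genes rose and 1.02% fell, with a median difference of 1.2. With exendin-4, 19 rose and 0 fell, where 2.69% of all genes rose and 0.737% fell, with a median of 1.10. In both injections 17 passed, in water alone 5 (Pola1, Prim2, Gins4, Cdc45 and Lig1), in exendin-4 alone 2 (Pold2 and Dut) and in neither 14. These lists are not evidence that a gene responded to MYC under 1 injection and not the other, since 0 of 38 differences between the injections passed. Counts under other settings, here and below, are given without the share of all genes. They are therefore not read as particular to the fork genes. The count with water was 13 without replicate 1 of MycON water at 16 h, and 0 when the 8 arrays dropped by the submitters were included.

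The interaction, the MYC effect with exendin-4 minus that with water, had a median of -0.05 over the 38 genes and ran from -0.60 to 0.34. By limma 0 of 38 genes and 0% of all genes passed. An unadjusted p under 0.05 was found for 326 of all 18193 genes and for 1 of the 38. That gene was Pole2, an accessory subunit of polymerase epsilon, at -0.60 (95% interval -1.2 to -0.01). For Pcna the interval of the interaction was -0.99 to 1.00 and for Hells -1.37 to 0.73, and over the 38 genes the intervals reached down to -1.47 (Gins4) and up to 1.44 (Pold2), so differences between the injections within these intervals were not resolved.

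Exendin-4 itself was followed by no called change in these genes. In MycOFF islets 0 of 38 genes passed by limma (0.0934% of all genes), with a median of 0.01 and a range from -0.53 (Dut) to 0.41 (Mcm10). There, 0 of the 38 and 1160 of all 18193 genes had an unadjusted p under 0.05. In MycON islets 0 of 38 passed (0.0605% of all genes), with a median of -0.01. An unadjusted p under 0.05 was found for 1003 of all 18193 genes and for 1 of the 38. That gene was Cdc45, at -0.64 ± 0.25 (95% interval -1.15 to -0.13). These comparisons share arrays with the MYC comparisons.

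**Figure D3:**
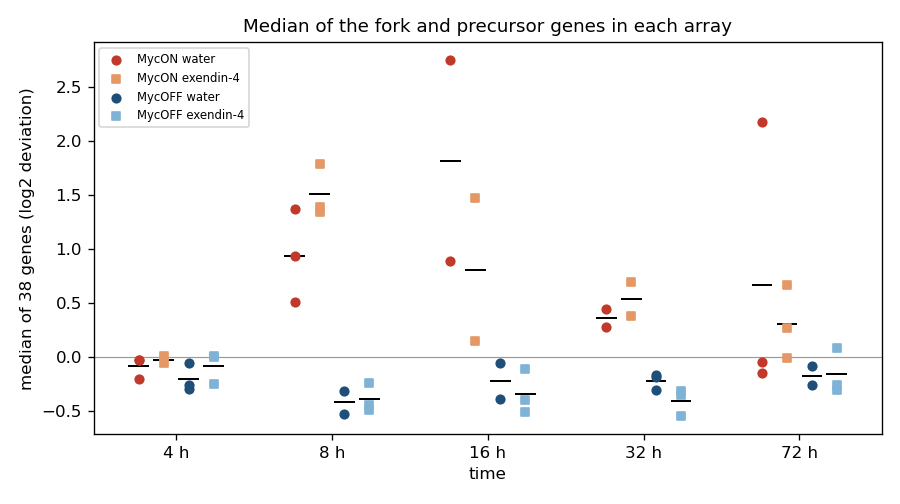
Median log2 deviation of the 38 genes in each of the 52 arrays, by time, MYC state and injection, with a black line at the mean of each group. The 6 MycON arrays at 8 h lay between 0.51 and 1.78 and the 5 MycOFF arrays between -0.53 and -0.24, while at 4 h all arrays lay between -0.29 and 0.01.

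The groups drew apart between 4 and 8 h. At 4 h the median of the 38 genes lay between -0.20 and 0.01 in the 5 MycON arrays and between -0.29 and 0.01 in the 6 MycOFF arrays. By limma 0 of 38 genes passed at 4 h, where 1.06% of all genes rose and 0.445% fell. An unadjusted p under 0.05 was found for 3 of the 38 and for 1680 of all 18193 genes. The median difference was 0.07, with 20 of 38 above 0. Every MycON array lay above every MycOFF array in 6 genes with water (6.89% of all genes) and in 8 with exendin-4 (5.86%). All MycON arrays lay below all MycOFF arrays in Pole and Pole2 with water and in Lig1 with exendin-4. The share of all genes below in this way was not counted at any time, so such genes are not read as falling. The 4 h values ran from -0.66 (Lig1) to 1.75 (Hells) and 1.97 (Wdhd1). In Hells, MycON water arrays at 4 h held 0.06, 2.58 and 0.64 and MycON exendin-4 arrays 1.24 and 1.69, all above the MycOFF arrays of the same injection, at -0.15, -0.06 and -0.84 and at -1.05, -0.55 and -0.21.

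At 8 h 23 of 38 genes rose and 0 fell, where 1.83% of all genes rose and 0.55% fell, and all 38 differences were above 0, with a median of 1.93. Hells differed by 4.09 ± 0.56 (limma adjusted p = 2.78e-05), Rfc4 by 3.45 ± 0.51, Uhrf1 by 3.45 ± 0.57 and Rpa2 by 3.22 ± 0.42 (limma adjusted p = 1.81e-05). In Rpa2, MycON water arrays held 3.44, 2.63 and 1.55 and MycOFF water arrays -0.73 and -0.58. With exendin-4 they held 3.02, 2.83 and 1.93 against -0.43, -0.75 and -0.74, so the groups were far apart in both injections. Rrm1 held 1.90, 1.28 and 1.51 against -1.12 and -0.92 with water, and 2.51, 1.98 and 1.99 against -1.17, -0.99 and -0.18 with exendin-4 (2.76 ± 0.52). The 8 h count was 14 without replicate 1 of MycOFF water and 7 with all 60 arrays.

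Beta cell markers were lower in the same 8 h arrays. All 8 differences were below 0 (median -1.09, range -2.10 to -0.33), and Pdx1, a transcription factor of beta cells, fell by 1.44 ± 0.29 (limma adjusted p = 0.00358). The array medians of the list were -0.71 to -0.05 in MycON and 0.41 to 0.90 in MycOFF arrays, which did not overlap, and their part in the fork gene values was not tested.

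At 8 h every MycON array lay above every MycOFF array in 31 genes with water, where this held for 41.7% of all genes, and in 31 with exendin-4, where it held for 7.92%. With water at 8 h the all-gene medians of the MycON arrays (0.01, 0.06 and 0.07) all lay above those of the MycOFF arrays (-0.03 and 0.00), so the count with water stands against a high background. The difference between the 8 h and 4 h effects had a median of 1.59 and was above 0 in 38 of 38 genes. An unadjusted p under 0.05 was found for 24 of the 38 and for 642 of all 18193 genes. By limma 0 of 38 genes and 0% of all genes passed for this difference. In the fit of only these arrays 2 passed.

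At 16 h 12 genes rose and 0 fell, where 1.25% of all genes rose and 0.104% fell, with a median of 1.75. Prim1 differed by 3.86 ± 0.53 (limma adjusted p = 0.000154), Pcna by 3.44 ± 0.59 and Rrm1 by 3.40 ± 0.57. Every MycON array lay above every MycOFF array in 30 genes with water (17.6% of all genes) and in 16 with exendin-4 (7.81%). All MycON arrays lay below all MycOFF arrays in Tyms with water (share of all genes not counted). The 16 h count rested on few arrays. It was 3 without replicate 1 of MycON water or without replicate 3 of MycON exendin-4, 6 without replicate 3 of MycOFF water, 20 without replicate 2 of MycON water, 7 after quantile normalization, 1 in a fit of only the arrays compared and 2 with all 60 arrays.

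At 32 h 6 genes rose and 0 fell, where 1.53% of all genes rose and 0.55% fell, with a median of 0.98: Pcna, Rfc4, Prim1, Wdhd1, Rpa2 and Hells, by 1.79 to 2.93. Every MycON array lay above every MycOFF array in 20 genes with water (9.78% of all genes) and in 23 with exendin-4 (9.95%). All MycON arrays lay below all MycOFF arrays in Rfc2 and Tyms with water and in Tk1 with exendin-4 (share of all genes not counted). Leaving out 1 array gave 0 (MycON exendin-4 replicate 1), 3 (its replicate 2), 1 (MycON water replicate 3) and 10 (MycON water 72 h replicate 3). Quantile normalization and array weights gave 17 each, the arrays compared alone 11, and all 60 arrays 0.

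At 72 h 1 gene rose, Pcna by 2.14 ± 0.53 (limma adjusted p = 0.0388), where 0.726% of all genes rose and 0.132% fell, and the median was 0.72. With water the MycON arrays of Pcna held 0.03, 0.56 and 3.06 against 0.02 and -1.66, and with exendin-4 0.13, 0.75 and 2.37 against -1.53, -0.75 and -1.18. The MycON arrays lay above the MycOFF arrays in both, but with water the nearest pair, at 0.03 and 0.02, all but coincided. Of the 38 genes, 8 had every MycON array above every MycOFF array with water (3.08% of all genes) and 9 with exendin-4 (3.74%). The call of Pcna ended without any 1 of the MycON arrays exendin-4 replicate 2 or 3 and water replicate 3, and of the MycOFF array exendin-4 replicate 1. It also ended (count 0) after quantile normalization, with array weights, in the fit of only the arrays compared and with all 60 arrays. The count was 2 with the mean of all probe sets and with the spread filter, 2 without any 1 of 4 arrays (MycON exendin-4 72 h replicate 1, MycON water 4 h replicate 1, MycON water 72 h replicate 2 and MycOFF exendin-4 72 h replicate 2), and 4 without MycOFF water 72 h replicate 1.

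**Figure D4:**
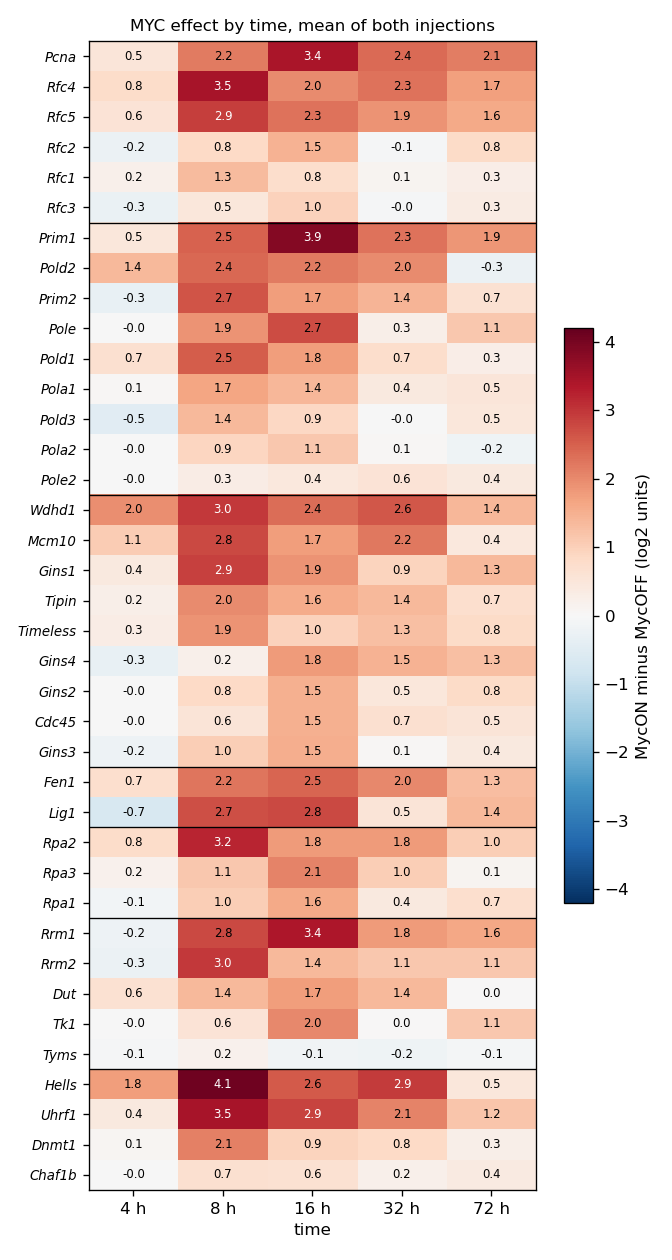
MycON minus MycOFF difference in log2 units of 38 genes at 5 times, averaged over both injections, with colour from blue (below 0) to red (above 0) and the value printed in each cell. Lines separate the roles, and 37 of 38 genes had their largest value at 8 or 16 h (share of all genes not counted).

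The timing differed among the genes as a description. The effect was largest at 8 h in 20 genes, at 16 h in 17 and at 32 h in Pole2 (share of all genes not counted). The 8 and 16 h values lay close together in some genes, such as Lig1 (2.69 and 2.78), Fen1 (2.24 and 2.45) and Chaf1b (0.69 and 0.63). They lay further apart in others, such as Prim1 (2.48 and 3.86). The peak of Tyms was only 0.18. Whether a gene peaked at 8 or at 16 h was not tested. All of the chromatin and methylation genes (median 2.78 at 8 h and 1.75 at 16 h) peaked at 8 h, while Pcna, Prim1, Rrm1, Tk1, Fen1 and Lig1 peaked at 16 h. The median of the single strand binding genes was 1.12 at 8 h and 1.79 at 16 h. Positive values at all 5 times were seen in 19 genes (share of all genes not counted). The change of the MYC effect over the 5 times was tested by limma's moderated F test. An unadjusted p under 0.05 was found for 21 of the 38 and for 1821 of all 18193 genes. Past the adjusted threshold were 0 of 38 genes (0.989% of all genes), with the lowest adjusted p, 0.0506, for Rrm1. The count became 8 without replicate 3 of MycON water at 72 h, 6 without replicate 2 of MycON water at 16 h and 4 without replicate 1 of MycON exendin-4 at 16 h, and 1 without any 1 of 11 other arrays.

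The MYC effect on Hells was lower at 72 h than at 8 h, with a difference of -3.62 ± 0.79 (limma adjusted p = 0.0241), and Hells was the only 1 of the 38 genes to pass, where 0.385% of all genes fell. At 72 h the MycON arrays of Hells held -0.13, -0.23 and 3.31 with water, against 0.12 and -0.08 in MycOFF. With exendin-4 they held -0.08, -0.24 and 0.21, against -0.10, 1.15 and -1.12. Only 1 of the 6 MycON arrays was thus high. The count became 0 without replicate 1 of MycON water at 72 h or replicate 3 of MycOFF water at 8 h, 3 without replicate 3 of MycON water at 72 h and 2 without replicate 3 of MycOFF exendin-4 at 72 h. It was 3 after quantile normalization, and 0 with array weights, all 60 arrays or the arrays compared alone. For Pcna the same change was -0.04 ± 0.75 (95% interval -1.57 to 1.48).

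In MycOFF islets 0 of 38 genes passed for a change over the 5 times (limma's moderated F test, 0.0055% of all genes). An unadjusted p under 0.05 was found for 0 of the 38 and for 702 of all 18193 genes.

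At 16 and 72 h the MycON arrays of 1 group differed from each other, strongly in 3 of the 4 groups. With water at 16 h the median of the 38 genes was 2.74 in replicate 1 and 0.89 in replicate 2, and replicate 1 was the higher in 37 of 38 genes, against 34% of all genes. With exendin-4 at 16 h it was 0.15 in replicate 1 and 1.47 in replicate 3, which was the higher in 31 genes, against 32.4% of all genes. With water at 72 h it was -0.14, -0.04 and 2.17, and replicate 3 was the highest in 37 of 38 genes, against 23.6% of all genes. With exendin-4 at 72 h it was 0.27, -0.01 and 0.67.

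In 3 of these 4 groups the array with the highest fork genes had the lowest macrophage and stromal markers, and in the fourth it had the highest. The 16 h groups held only 2 arrays each, so the lowest there is the lower of 2. At 16 h with water the macrophage marker median was -0.59 in replicate 1 and 1.17 in replicate 2, and the stromal median -1.30 and 0.03. At 16 h with exendin-4 they were 2.57 and 1.82 in replicate 1 against -0.26 and -0.62 in replicate 3. At 72 h with water the macrophage medians were 1.81, 1.59 and -0.17 and the stromal medians 2.32, 1.34 and -0.82, while the beta cell medians were -0.48, -0.32 and -0.32. At 72 h with exendin-4 the order was the other way: the macrophage medians were 2.78, 2.08 and 3.27 and the stromal medians 2.12, 1.90 and 2.90, both highest in replicate 3, which also had the highest fork gene median.

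The beta cell markers thus did not separate the 72 h water arrays as the other lists did. Over both injections at 72 h, 7 of 12 macrophage markers (median 1.92) and 2 of 8 stromal markers, Postn and Lum (list median 1.21), rose with MYC. The part of these markers in the fork gene values was not tested. Without the 72 h arrays 33 of the 38 genes rose over the other times.

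**Figure D5:**
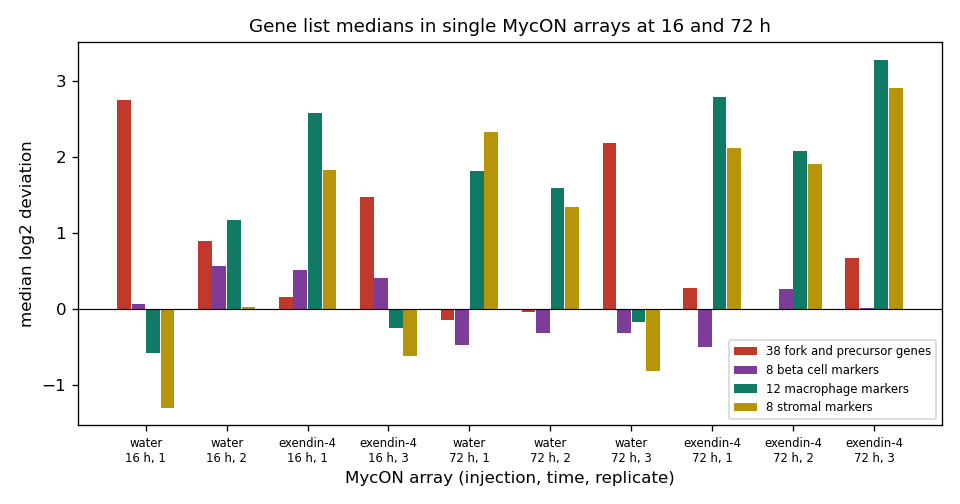
Median log2 deviation of 4 gene lists in each of the 10 MycON arrays at 16 and 72 h, with 1 group of bars per array. In the array with the highest fork gene median of 3 groups (2.74, 1.47 and 2.17) the macrophage and stromal medians were below 0, and in that of MycON exendin-4 at 72 h (0.67) they were 3.27 and 2.90, the highest of its group.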

How the data were processed

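Gene expression was measured on 60 Affymetrix arrays. The deposited values are log2 values, centred by probe set: the median over the 60 arrays was 0 for 100% of 45101 probe sets (tolerance 1e-04). Base 2 was inferred, since the sources used here do not state it. MAS5 and GCRMA appear in the submitters' processing notes, with neither role nor version. Per the labels, 8 arrays were left out by the submitters, and 52 were used here. Probe sets with 1 gene symbol (34945) were kept, the one with the widest interquartile range standing for its gene. No filter on spread was applied, since such a filter favours genes that differ between groups; 36 of the 38 genes pass the 40th percentile filter that was kept as an alternative, and Cdc45 and Chaf1b do not. A choice by widest range also favours a responsive probe set.

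One linear model of 20 group means was fitted to all 18193 genes with limma (version 3.58.1; R 4.3.3; data.table, version 1.17.8) and moderated by eBayes (32 residual, 1.26 prior degrees of freedom). Contrasts weight the 5 times and both injections equally. The threshold was a Benjamini-Hochberg adjusted p under 0.05 over all genes of a contrast. Every p printed is from this model, except the highest adjusted p given for fits without 1 array. The model was tested on simulated data for the MYC comparison over all times. It recovered 89% of 100 genes changed by 1 log2 unit and 100% of 100 changed by 2, and called 11 unchanged genes. The simulated noise was normal and independent between genes, with an equal shift at all times, and changed genes excluded those of smallest spread. The arrays used differed in spread and their genes moved together, so these figures need not hold for the real data. Also tried were probe set averaging, the spread filter, quantile normalization, all 60 arrays, array weights, a replicate block, only the arrays compared, and leaving out each array; the fit without 72 h was added after seeing the data.

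Members, lists and tests were chosen with earlier results of these data known. Values are given for the smallest and largest p of each role and for 8 fixed genes; other lists name up to 4 genes by smallest p, and genes named beyond this were chosen after their values were seen. Promoters are from RefSeq (GRCm38.p6), and motifs were counted with Python 3.11.15 and pandas 2.3.3. Figures used matplotlib 3.10.9. The number of arrays limits the precision.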

Additional observations from a re-analysis of the deposited data

Results flagged for a closer look

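The MYC effect on Hells differed between 72 h and 8 h, by -3.62 log2 units in a test of the difference itself. Single outlying arrays were looked for only in groups of at least 4 arrays, and no group was that large.

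The 8 arrays that the submitters left out enter no comparison above. In 7 of them the median of the 38 genes was above the highest median of a used MycOFF array (0.09). It was 1.42 in MycON exendin-4 4 h replicate 3, 0.81 in MycON exendin-4 16 h replicate 2, 0.50 in MycON exendin-4 32 h replicate 3 and 0.45 in MycON water 16 h replicate 3. It was 1.74 in MycOFF water 8 h replicate 2, 1.38 in MycOFF water 16 h replicate 1 and 1.66 in MycOFF water 72 h replicate 2. The last 3 are MycOFF arrays, in which the lymphoid marker medians were 6.13, 4.89 and 3.07 and the beta cell medians -3.72, -5.79 and -2.71. The fork genes were thus high with MYC off in arrays whose markers differed from those of the islet arrays used. All 8 arrays had a beta cell marker median under the lowest of the used arrays (-0.88). The lymphoid marker median was above 3 in 4 of them, against at most 0.24 in the used arrays, and the stromal median was above 5 in 3 others. With these 8 arrays fitted, 0 of the 38 genes passed in the MYC comparison with water, and the part of the other cell types in that was not tested.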

How the results depend on the processing

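All 264 single gene values under other settings kept their sign, and 80 of 105 counts stayed within 1.5 times. The causes of the moves were not tested. The share of all genes that passed under each setting is not given, so a moved count is not read as particular to these genes. With the mean of all probe sets the 72 h count was 2 and that for change over time 3; with the spread filter they were 2 and 1. Quantile normalization gave 1, 7, 17 and 0 at 4, 16, 32 and 72 h, 3 for change over time and 3 for 72 h minus 8 h. All 60 arrays gave 0 with water, 7, 2, 0 and 0 at 8, 16, 32 and 72 h and 0 for 72 h minus 8 h, and 11 genes lost their call over all times. Array weights gave 17 at 32 h, 0 at 72 h, 1 for change over time and 0 for 72 h minus 8 h, and ended the calls of Rfc1, Cdc45 and Tk1. Only the arrays compared gave 1, 11 and 0 at 16, 32 and 72 h, 2 for 8 h minus 4 h and 0 for 72 h minus 8 h. Leaving out 1 array gave 29 to 35 over all times, 13 to 25 with water, 13 to 22 with exendin-4, 14 to 25, 3 to 20, 0 to 10 and 0 to 4 at 8, 16, 32 and 72 h, 0 to 8 for change over time and 0 to 3 for 72 h minus 8 h. It left the counts at 0 for 4 h, 8 h minus 4 h, exendin-4, the interaction and MycOFF over time. No pairing by replicate number was seen over all groups together (median correlation 0.01 over 425 pairs of 1 number and -0.01 over 857 others). Single pairs of 1 number ran from -0.59 to 0.55, and pairing within a time or an injection was not tested. With the replicate block the count over all times was 31, with water 23 and with exendin-4 20.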
